A study of Mus musculus with 8 samples.

Results

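V(D)J recombination assembles antibody genes by cutting DNA at recombination signals and rejoining the ends. RAG1 and RAG2 form the recombinase that cuts. The Ku heterodimer (Xrcc6 encodes Ku70, Xrcc5 encodes Ku80) binds the ends and recruits the kinase DNA-PKcs (Prkdc), the nuclease Artemis (Dclre1c) opens the hairpin ends, the polymerases lambda (Poll) and mu (Polm) fill gaps, and the ligase IV complex (Lig4 with its partner Xrcc4) seals the joint. The recombinase acts only in developing lymphocytes, whereas the joining proteins serve the repair of double-strand breaks in most cells. These 10 genes were followed here through every non-control probe that carries one of their symbols, which gave 16 of the 39429 probes on the array and 10 of its 31829 gene or transcript names.

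RNA of sorted mouse pro-B cells, the early B lineage stage at which the heavy chain locus is rearranged, was measured on 8 arrays of 1 colour, 2 for each of 4 groups. Fetal liver (FL) cells, pooled from embryos at gestation day 16 (8 on average), carried let-7b in a retrovirus or the empty MSCV vector. Adult bone marrow (BM) cells, pooled from 2 mice per sort, carried Lin28b in a retrovirus or the empty pMIG vector. All mice were BALB/c Rag1 null, all cells were grown on OP9 stromal cells with IL-7, and in all groups the cells positive for GFP were sorted 4 days after transduction. Lin28b binds precursors of let-7 microRNAs and keeps them from maturing. The mature let-7b, shown because it is the agent given to the FL cells, reads as follows in RefSeq, with the seed (bases 2 to 8) in capitals.
mmu-let-7b-5p: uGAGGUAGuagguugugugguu

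The mice make no functional RAG1, and the labels do not say which stretch of Rag1 the null allele lacks. The Rag1 probes therefore report transcripts of the locus and check nothing about the deletion. BALB/c mice are also known to carry a Prkdc variant that lowers DNA-PKcs, and all 4 groups share it. All 16 probes were well above background on all 8 arrays and none was saturated. Levels are log2 of the processed signal relative to the 75th percentile of the same array, and they are compared only within a probe.

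Facts of the whole set of arrays bear on what follows. Arrays correlated at 0.969 to 0.989 within FL, 0.99 to 0.994 within BM and 0.908 to 0.941 between them. The median replicate SD was 0.22 in FL let-7 and 0.28 in FL empty vector cells, against 0.07 in BM Lin28b and 0.08 in BM empty vector cells. All 4 BM arrays lay on slide 1, while each FL slide held 1 let-7 and 1 empty vector array, so tissue, age, vector, slide and scan cannot be told apart between FL and BM. Apart from Rag1 and Rag2, all 8 measured pro-B markers were well above background in every group. Their summed linear level was 776 to 1061 in FL empty vector cells, against 340 to 360 in BM empty vector cells. Vpreb1 and Cd79b were the largest parts of the FL sum, at mean log2 levels of 8.65 and 8.39. Of 10 pro-B markers tested, Rag1 and Rag2 included, 6 were called higher in FL and 0 lower (all probes 39.1% and 19.8%). Ebf1 (-0.57) and Pax5 (-0.23) were lower without a call. The second Pax5 probe was called lower, at -1.42 (adjusted p = 0.0188), with 1 of 2 FL arrays above background. The shift of the pro-B markers depended on the scaling. Their median difference, Rag1 and Rag2 included, was 0.97 with 75th percentile and 0.16 with quantile scaling. Vpreb1 turned from 1.18 to -0.48. Summed myeloid markers were 28.7 to 61.0 in FL empty vector cells, against 9.05 to 9.49 in BM empty vector cells, with Mpo not above background in either and Lyz2 not in FL. The largest part of these sums was Itgam, whose brightest probe had log2 levels of 5.80 and 4.10 against 3.05 and 3.13. The difference of this probe was not called (adjusted p = 0.0537). Further Itgam probes were called higher in FL, at 1.28 and 1.35 (adjusted p = 0.00131 and 0.0112). They were not called under quantile scaling (adjusted p = 0.116 and 0.101). Of 7 myeloid markers tested, 3 were called higher in FL and 1, Lyz2, lower at -2.51 (all probes 39.1% and 19.8%). Summed stromal markers were 4.75 to 5.07, against 10.4 to 12.7. Summed T and NK cell markers were 10.95 to 17.7, against 12.3 to 12.6, with Cd3g and Ncr1 not above background in either. Of 5 T and NK cell markers tested, 3 were called higher in FL and 1 lower (all probes 39.1% and 19.8%). Among them were Cd3e at 3.56 and Thy1 at -2.13. The part of these shifts in the differences between FL and BM was not tested. Of the hepatocyte markers, Alb, Apoa1 and Ttr were not well above background on any array. Afp was so on every BM array and on no FL array, and its difference of -0.84 was not called (adjusted p = 0.0874). In bulk RNA, fewer cells of a type and less RNA per cell cannot be told apart.

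Rag1 was the member with the largest difference between the tissues. Its transcripts were 18.1-fold and 6.59-fold higher in FL than in BM empty vector cells by its upstream and downstream probe. The upstream probe lies at chr2:101481051-101481110 and the downstream probe at chr2:101478813-101478872, both on the minus strand of mm9 and 2238 bases apart. Both target sequences are shown by their first 30 of 60 bases, because the finding rests on them.
Rag1 upstream probe: ggtgtcataaatttttcaataatgaagtta
Rag1 downstream probe: agttgtttgatgcatgtgtatgccattaga

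The upstream Rag1 probe read 0.07 and 0.37 in FL let-7 cells and 0.48 and 0.79 in FL empty vector cells, against -3.58 and -3.79 in BM Lin28b cells and -3.53 and -3.57 in BM empty vector cells. All 4 FL arrays were above all 4 BM arrays. The FL minus BM difference with empty vector was 4.18 ± 0.18 on the log2 scale (SE, n = 2 each, 95% interval 3.73 to 4.63, adjusted p = 0.000336). In rank it was the 250th highest difference of the 28410 probes tested.

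The downstream Rag1 probe read 3.53 and 3.09 in FL let-7 cells and 3.69 and 3.07 in FL empty vector cells, against 0.56 and 0.70 in BM Lin28b cells and 0.66 and 0.65 in BM empty vector cells. Again the tissues did not overlap. The difference was 2.72 ± 0.25 (95% interval 2.09 to 3.35, adjusted p = 0.000904), the 1871st highest. That the upstream probe showed the larger difference was not tested.

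Rag2, which lies next to Rag1 on the opposite strand and encodes the recombinase's chromatin-reading subunit, gave unlike values with its probes. They lie 1722 bases apart on the plus strand of mm9, at chr2:101470723-101470782 (upstream) and chr2:101472445-101472504 (downstream, printed 10 times on the array). They are shown because they disagree, the upstream one whole and the downstream one by its first 30 bases.
Rag2 upstream probe: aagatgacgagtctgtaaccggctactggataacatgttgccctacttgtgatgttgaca
Rag2 downstream probe: cttaaagacagttgtcatctctggaaatag

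The upstream Rag2 probe read 0.98 and 0.77 in FL let-7 cells and 0.84 and 0.78 in FL empty vector cells, against 0.53 and 0.46 in BM Lin28b cells and 0.57 and 0.66 in BM empty vector cells. All FL arrays were above all BM arrays, by little. The difference of 0.20 ± 0.13 with empty vector did not pass the test (adjusted p = 0.243). The downstream probe read -2.47 and -2.31 in FL let-7 cells and -2.11 and -2.41 in FL empty vector cells, against -3.53 and -3.50 in BM Lin28b cells and -3.28 and -3.31 in BM empty vector cells. It was higher in FL by 1.03 ± 0.15 (2.05-fold, adjusted p = 0.00279), by 0.54 under quantile scaling (adjusted p = 0.042) and by 0.21 under median scaling, where it was not called (adjusted p = 0.42). The upstream probe was called lower under median scaling, at -0.63 (adjusted p = 0.0192). Rag2 was thus called higher by 1 of 2 probes with 75th percentile scaling, and its direction depended on probe and scaling.

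**Figure D1:**
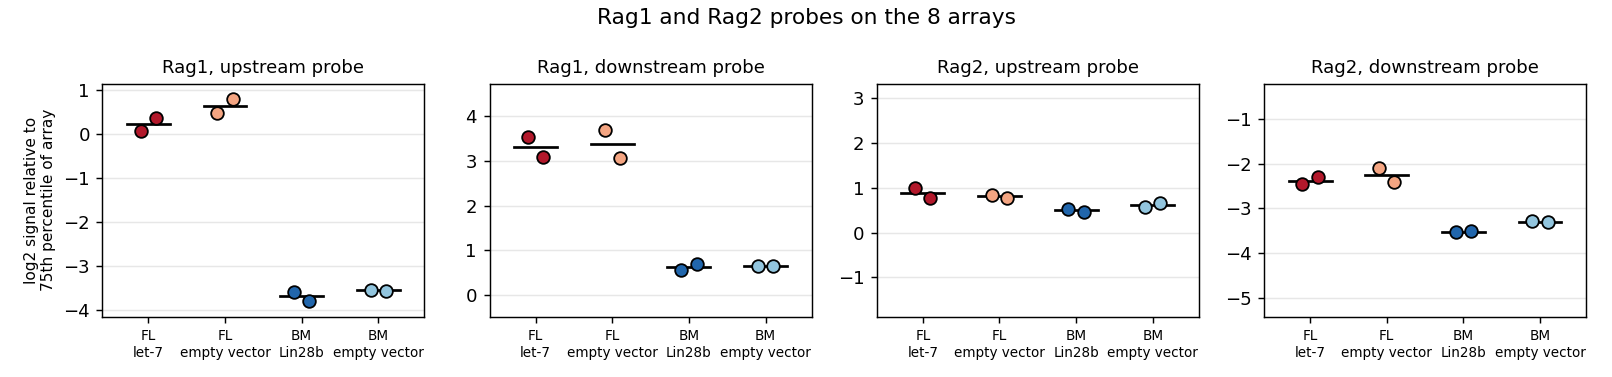
Levels of the Rag1 and Rag2 probes on the 8 arrays (y axis, log2 signal relative to the 75th percentile of the array), by group. Points are arrays and bars are means of 2. The y axes span the same number of log2 units but start at different levels. Both Rag1 probes separate FL from BM widely, while the upstream Rag2 probe lies between 0.46 and 0.98 in all groups.

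The 250 bases before the start of each Rag gene are printed because Rag1 and Rag2 are neighbours whose probes differed to unlike extents. They come from RefSeq on GRCm38.p6, a later build than that of the probe positions. Capitals mark matches, on either strand, to CCAAT and to the E-box CANNTG, the motif class bound by E2A (Tcf3).
Rag1, chr2:101649533-101649782, minus strand: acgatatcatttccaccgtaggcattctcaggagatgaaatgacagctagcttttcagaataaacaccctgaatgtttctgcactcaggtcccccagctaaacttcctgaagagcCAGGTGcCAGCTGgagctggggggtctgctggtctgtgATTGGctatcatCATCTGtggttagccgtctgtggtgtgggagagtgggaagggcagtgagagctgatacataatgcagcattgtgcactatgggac
Rag2, chr2:101624462-101624711, plus strand: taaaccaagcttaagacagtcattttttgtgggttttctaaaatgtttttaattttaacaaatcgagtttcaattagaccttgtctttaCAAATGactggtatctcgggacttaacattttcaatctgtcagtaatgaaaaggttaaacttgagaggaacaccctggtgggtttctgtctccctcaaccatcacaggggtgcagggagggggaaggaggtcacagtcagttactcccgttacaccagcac

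The Rag1 stretch held 1 CCAAT and 3 CANNTG matches, and the Rag2 stretch 0 and 1. Of 32851 RefSeq stretches of the same length, 33.8% held CCAAT and 66.2% held the E-box. The core bound by Myb, TAACNG, matched 2 times before Rag2 and 0 times before Rag1, and 19.8% of all stretches held it. GTAAACA, a FOXO core, matched neither stretch and occurred in 3.17% of all. These matches are letters in a window, not measured sites. Of the 10 genes, 8 were in that table.

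Lig4, the ligase of the joining complex, was the member with the largest difference in the other direction. Its probe (chr8:9970290-9970349, minus strand, mm9) is shown by its first 30 bases.
Lig4 probe: acagtgtttacagaacttgtctcctatcga

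Lig4 read 0.37 and 0.10 in FL let-7 cells and -0.02 and -0.62 in FL empty vector cells, against 1.17 and 1.44 in BM Lin28b cells and 1.46 and 1.32 in BM empty vector cells. All FL arrays were below all BM arrays. With empty vector it was lower in FL by 1.71 on the log2 scale (difference -1.71 ± 0.24, adjusted p = 0.00247). Its scaffold partner Xrcc4 read 0.31 and 0.28 in FL let-7 and 0.37 and 0.11 in FL empty vector cells, against -0.02 and 0.00 in BM Lin28b and 0.03 and -0.07 in BM empty vector cells. Its difference of 0.26 ± 0.14 did not pass (adjusted p = 0.156). It was called lower under median scaling, at -0.56 (adjusted p = 0.0383), and higher without FL empty vector replicate 2, at 0.39 (adjusted p = 0.0441).

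The Ku genes had calls in opposite directions. Xrcc5 (Ku80) read 0.96 and 0.83 in FL let-7 and 1.13 and 0.95 in FL empty vector cells, against 1.59 and 1.59 in BM Lin28b and 1.55 and 1.46 in BM empty vector cells. It was lower in FL, with a difference of -0.46 ± 0.13 (adjusted p = 0.0266). Xrcc6 (Ku70) read 5.15 and 5.40 in FL let-7 and 5.16 and 5.62 in FL empty vector cells, against 4.52 and 4.59 in BM Lin28b and 4.64 and 4.62 in BM empty vector cells. It was higher in FL by 0.76 ± 0.19 (adjusted p = 0.0186), which shrank to 0.36 under quantile scaling (adjusted p = 0.075) and to -0.07 under median scaling. Without 1 of the BM empty vector arrays neither Ku call held, with adjusted p of 0.0812 and 0.0848 for Xrcc6 and 0.139 and 0.0905 for Xrcc5 without replicate 1 and 2. The Xrcc5 call was also lost without either BM Lin28b array (adjusted p = 0.0667 each) and without FL empty vector replicate 2 (adjusted p = 0.0587). It was further lost with the slide as a random block (adjusted p = 0.0689), with normexp background correction (adjusted p = 0.0919) and with only the compared arrays (adjusted p = 0.0914). The Xrcc6 call was lost with normexp (0.60, adjusted p = 0.163) and with only the compared arrays (adjusted p = 0.0599).

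**Figure D2:**
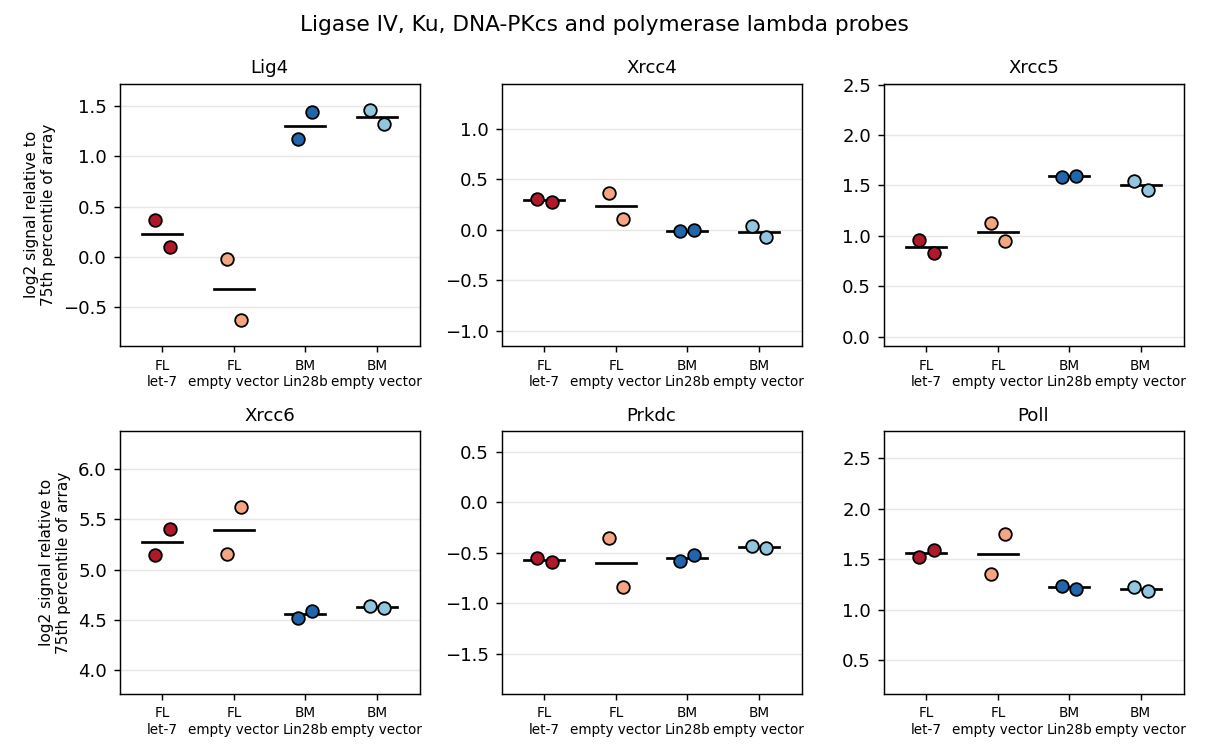
Levels of 6 end-joining probes on the 8 arrays (y axis, log2 signal relative to the 75th percentile of the array), by group. Points are arrays and bars are means of 2, and the y axes span the same number of log2 units. Lig4 and Xrcc5 lie lower in FL and Xrcc6 higher, while Prkdc overlaps between the tissues.

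The kinase, nuclease and polymerase probes showed smaller differences. The Prkdc probe spans 2606 bases of mm9 (chr16:15839317-15841922, plus strand) and so crosses an exon junction, as does the Xrcc5 probe (307 bases, chr1:72430014-72430320, plus strand). Both are shown because they can match only spliced transcripts.
Prkdc probe: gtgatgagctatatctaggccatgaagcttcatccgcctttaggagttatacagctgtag
Xrcc5 probe: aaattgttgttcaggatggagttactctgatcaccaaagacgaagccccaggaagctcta

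Prkdc read -0.55 and -0.59 in FL let-7 and -0.35 and -0.84 in FL empty vector cells, against -0.58 and -0.53 in BM Lin28b and -0.43 and -0.45 in BM empty vector cells. The groups overlapped, and the FL minus BM difference was -0.15 ± 0.18 (95% interval -0.61 to 0.30, adjusted p = 0.495). Prkdc was called lower under median scaling, at -0.98 (adjusted p = 0.00672), and without FL empty vector replicate 1, at -0.40 (adjusted p = 0.0344). The 4 Dclre1c probes, numbered by position on the plus strand of mm9 with starts within 7633 bases, gave FL minus BM differences of -0.23, 0.23, -0.30 and 0.25. None was called with 75th percentile scaling. The array design assigns probes 1 and 2 to a different RefSeq transcript from probes 3 and 4. Under median scaling probe 1 was called lower at -1.06 (adjusted p = 0.0303) and probe 3 at -1.12 (adjusted p = 0.00563). Probe 3 was also called lower under quantile scaling, at -0.62 (adjusted p = 0.0222), against an adjusted p of 0.122 with 75th percentile scaling. The Poll difference was 0.34 ± 0.16 (adjusted p = 0.118), and without FL empty vector replicate 1 it was called higher, at 0.54 (adjusted p = 0.015).

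Polm, the polymerase active in joining light chain genes, also gave unlike values with its probes. The downstream Polm probe read -0.83 and -0.75 in FL let-7 and -1.27 and -1.12 in FL empty vector cells, against -1.63 and -1.28 in BM Lin28b and -1.85 and -1.62 in BM empty vector cells. With empty vector the difference was 0.54 ± 0.17 (adjusted p = 0.0401). The call was lost without any 1 of the 8 arrays, under quantile scaling (0.34, adjusted p = 0.139), under median scaling (-0.29), with normexp (adjusted p = 0.0916), with no filter on dim probes (adjusted p = 0.0552), with only the compared arrays (adjusted p = 0.0788) and with the slide as a random block (adjusted p = 0.147). The upstream probe had a difference of 0.02 ± 0.46 (adjusted p = 0.978).

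Between the tissues 5 of the 16 probes were called higher and 2 lower in FL, against 39.1% higher and 19.8% lower among all 28410 probes tested, so the counts were not above the background. The median of all probes was itself 0.47 higher in FL, and the members' median difference was 0.24. Under median scaling the median of all probes was -0.35, and 2 members were called higher and 7 lower, against 17.8% and 37% of all probes. Quantile scaling, which took the median of all probes to about 0, called 3 members higher and 3 lower (24.5% and 27.3% of all probes). It changed the share of calls that were higher to 47.3%, against 66.4% with 75th percentile scaling. Both Rag1 probes and Lig4 kept their direction and call in every alternative that tested them. Their size depended on the setting. Over all settings the log2 difference ran from 3.36 to 4.33 for upstream Rag1 and from 1.90 to 3.03 for downstream Rag1. For Lig4 it ran from -2.53 to -1.41.

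**Figure D3:**
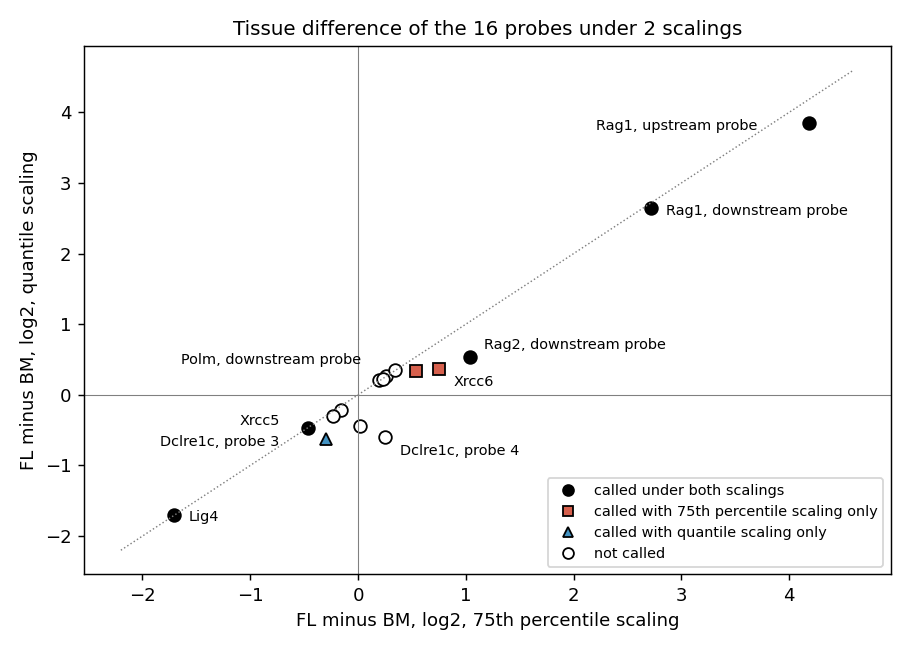
FL minus BM log2 differences with empty vector of the 16 probes, under 75th percentile scaling (x axis) and quantile scaling (y axis). Each point is a probe and the dotted line marks equal values. Downstream Rag1 at 2.72 and Lig4 at -1.71 stay near the line, while upstream Rag1 moves from 4.18 to 3.85. Dclre1c probe 4 (0.25 to -0.59) and upstream Polm (0.02 to -0.44) are among the probes below the line, as are downstream Rag2 and Xrcc6.

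Lin28b in BM pro-B cells changed no member past the test, by any of the settings tried. Of the 16 probes, 0 were called, with differences between -0.22 and 0.34 and adjusted p = 1 for each, and 0 had an unadjusted p below 0.05. The background was 0.00352% of all probes higher and 0% lower. For Rag1 the Lin28b minus empty vector difference was -0.14 (95% interval -0.58 to 0.31) by the upstream and -0.03 (-0.66 to 0.60) by the downstream probe. These intervals use 1 spread per probe over both tissues, and FL replicates varied more. With only the BM arrays the SE was 0.10 upstream and 0.08 downstream, against 0.18 and 0.25. Both Rag2 probes were below both empty vector arrays, at -0.12 and -0.22, and Xrcc5 was above, at 0.09. In all, 1 probe lay above and 5 below without overlap, against 17.8% and 33.3% of all probes. The stromal markers, 10 of 10 measured in both groups, summed to 18.9 to 28.3 in Lin28b cells, against 10.4 to 12.7 with empty vector. The myeloid markers S100a8 and S100a9 were well above background on both Lin28b arrays and on neither empty vector array. On Lin28b replicates 1 and 2 they read -6.64 and -1.09 (S100a8) and -4.61 and 0.56 (S100a9). Of 7 myeloid markers tested, 3 differences were positive and 4 negative, and 0 were called. The part of the stromal and myeloid markers in the values was not tested.

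Let-7 in FL pro-B cells likewise left 0 of 16 probes called (background 0.0176% higher and 0.00704% lower), with 0 at an unadjusted p below 0.05 and the smallest adjusted p at 0.542. The upstream Rag1 probe differed by -0.41 on each slide (-0.41 ± 0.18, adjusted p = 0.549), and the downstream probe differed by -0.07 ± 0.25. Lig4 differed by 0.55 ± 0.24 (0.39 and 0.72 within the slides, adjusted p = 0.549). The downstream Polm probe differed by 0.40 ± 0.17 (0.44 and 0.37 within the slides, adjusted p = 0.542). Thus 2 probes lay above and 1 below without overlap, against 11.8% and 18.2% of all probes. Stromal markers summed to 6.34 to 12.0 in let-7 cells, against 4.75 to 5.07 in empty vector cells, and their part was not tested.

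**Figure D4:**
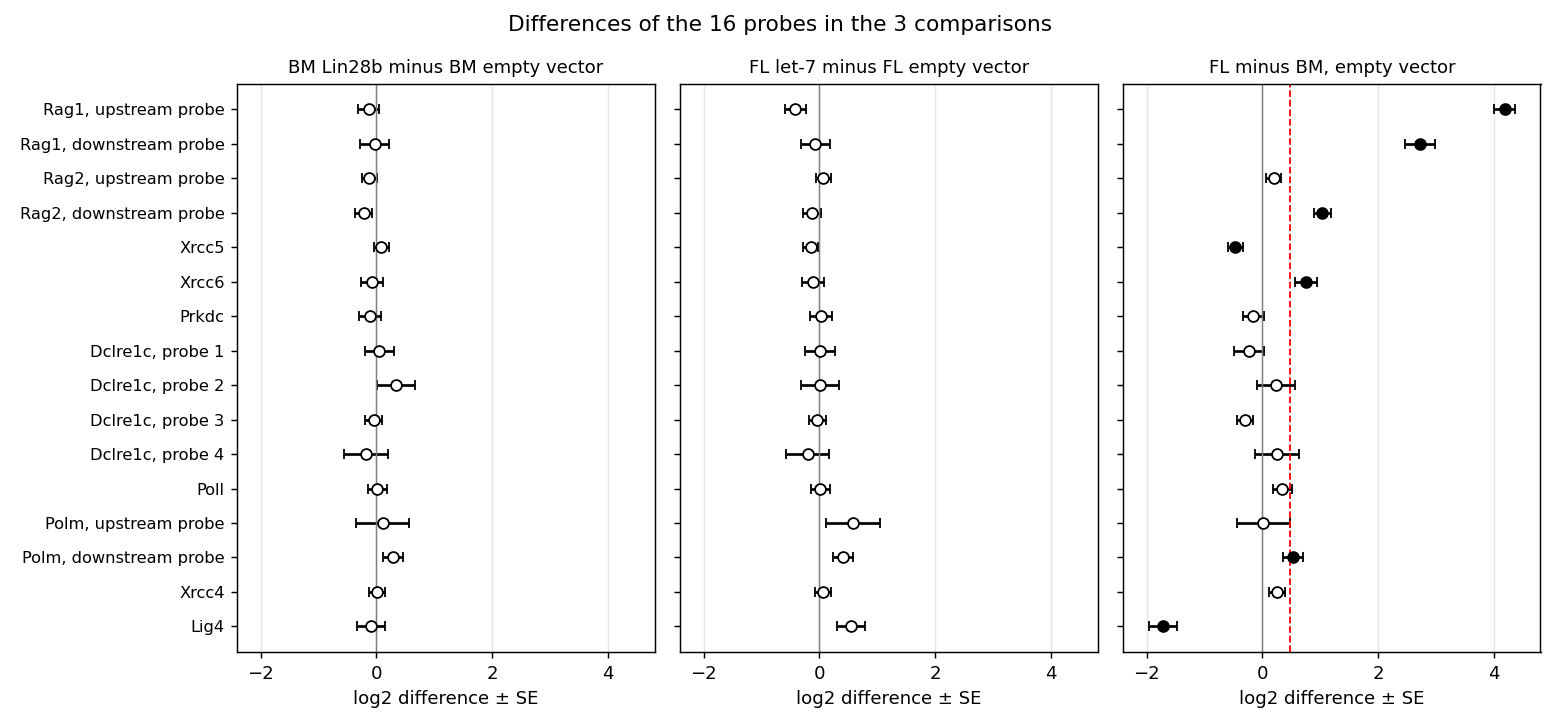
Log2 differences ± SE (x axis) of the 16 probes in the 3 comparisons, with filled points for adjusted p below 0.05 and a red dashed line at the median of all probes tested (0.47) in the tissue comparison. All 7 filled points lie in the FL minus BM panel, with Rag1 at the right and Lig4 at the left.

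Genes that share the pathway showed where the members stand. Of 16 other end-joining and break-response genes, 2 were called higher and 10 lower in FL (median -0.72, against 0.47 over all probes), where 39.1% of all probes were called higher and 19.8% lower. Nhej1, whose product XLF aids ligation, was higher by 1.33 ± 0.18 (adjusted p = 0.00222). Hmgb1, which assists RAG in cutting, was lower, with a difference of -1.03 ± 0.15 (adjusted p = 0.003). So was Rnf168, a ubiquitin ligase at breaks, at -0.95 ± 0.14 (adjusted p = 0.00308). Aptx, a DNA end processor, differed by -2.05 ± 0.20, but only 1 of 2 FL arrays was above background, and the value turned to 0.16 under normexp background correction.

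Of 7 alternative end-joining genes, 2 were called higher and 4 lower (median -0.40), against the same 39.1% and 19.8% of all probes. Xrcc1, a repair scaffold, was higher by 1.10 ± 0.12 (adjusted p = 0.00128), and Lig1, the replicative ligase, by 0.54 ± 0.12 (adjusted p = 0.0119), which turned to -0.29 under median scaling and was not called with quantile scaling (0.17, adjusted p = 0.258), normexp (0.33, adjusted p = 0.467) or only the compared arrays (adjusted p = 0.0565). Polq, which drives microhomology joining, was lower, at -2.30 ± 0.30 (adjusted p = 0.00188), as was the end-resection factor Rbbp8, at -1.19 ± 0.27 (adjusted p = 0.0124). Of 11 homologous recombination genes, 0 were called higher and 7 lower (median -0.82, all probes 39.1% and 19.8%), among them Brca2 at -1.88, Xrcc2 at -1.05 and Palb2 at -1.68. The second Xrcc2 probe differed by -0.46 and was not called (adjusted p = 0.129). The second Palb2 probe was called lower at -1.45, with 1 of 2 FL arrays above background. Bard1 was called lower by 1 probe, at -0.80, and higher by another, at 1.22. Nhej1 and Xrcc1 were not called under median scaling (0.50 and 0.28). Xrcc1, Xrcc2 and Palb2 were not called with normexp (0.87, -0.51 and -0.89). Rbbp8 was not called without BM empty vector replicate 1 or 2 (adjusted p = 0.0625 and 0.0587), nor was Lig1 (adjusted p = 0.0549 and 0.0821). None of these lists had a call with Lin28b or let-7.

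Among 20 regulators of the Rag genes, mostly transcription factors, 8 were called higher and 5 lower in FL (median 0.32), shares near the 39.1% and 19.8% of all probes. Irf4 was higher by 2.06 ± 0.20 (adjusted p = 0.000963) and Foxo1, an activator of Rag transcription, by 1.43 ± 0.17 (adjusted p = 0.00149). Foxo1 lost its call under median scaling, at 0.61. Irf8 was lower, at -0.99 ± 0.12 (adjusted p = 0.00143), as was Myb, at -0.98 ± 0.12 (adjusted p = 0.00162). With Lin28b and with let-7, 0 of the 20 were called.

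**Figure D5:**
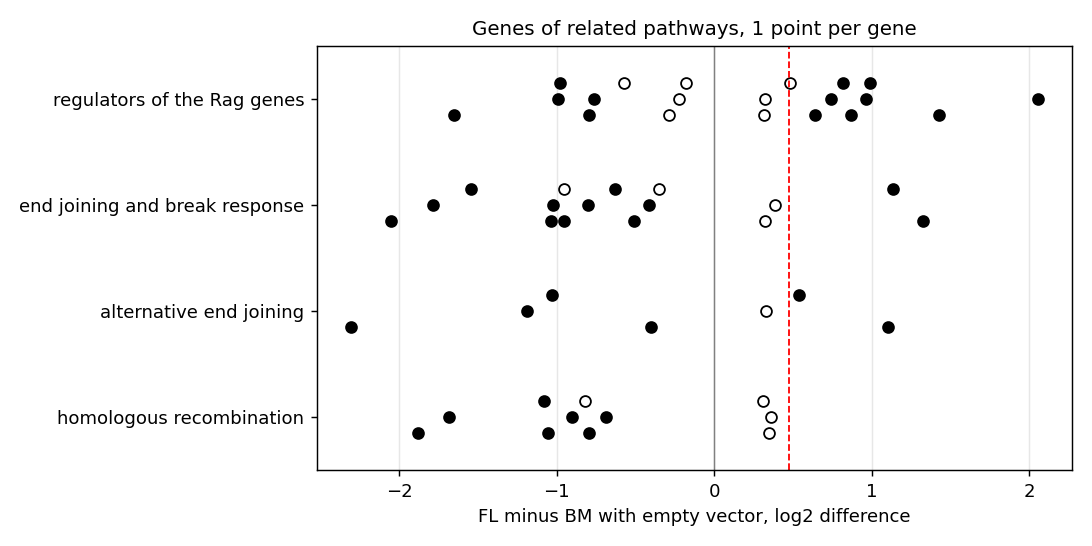
FL minus BM log2 differences with empty vector (x axis) of genes in 4 related lists, 1 point per gene by its probe of highest mean, filled where the adjusted p is below 0.05. The solid line is 0 and the dashed line the median of all probes (0.47). Most homologous recombination and break-response genes lie left of 0.

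Of the 3 genes measured beside the Rag locus, 2 were called higher in FL and 1 was not called, against 39.1% of all probes higher. Prr5l was higher in FL by 2.71 ± 0.32 (adjusted p = 0.00154) and Traf6, a signalling ubiquitin ligase, by 1.76 ± 0.30 (adjusted p = 0.00477), with 2.28 and 0.51 by their second probes. Traf6 was not called under median scaling, at 0.93 (adjusted p = 0.0903). B230118H07Rik differed by 0.34 ± 0.21 (adjusted p = 0.206), by -0.49 under median scaling, and by 0.60 without FL empty vector replicate 1, where it was called (adjusted p = 0.0288). Dntt, the polymerase that adds untemplated bases at the joints, was lower in FL, at 0.51 and 0.64 in FL empty vector cells, against 6.48 and 6.41 in BM empty vector cells. Its difference was -5.87 ± 0.18 (adjusted p = 0.000287), and the Dntt differences with Lin28b and let-7 were -0.83 and 1.11 (adjusted p = 1 and 0.165).

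By the root mean square of centred log2 values over the 8 arrays, the profiles nearest to the downstream Rag1 probe among 17042 named genes were Wbscr25, Bhlha9, Nwd1, Rnf39 and Tnrc4, at 0.102 to 0.148. Those nearest to the upstream Rag2 probe were 4930422I07Rik, Afg3l1, Arpc1a, Dlg1 and Sptlc2, at 0.047 to 0.0608. The 8 arrays share slides within a tissue, so these lists describe these arrays only.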

How the data were processed

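The scanner files hold spot intensities that the authors' scanner software, Agilent Feature Extraction 9.5.3.1, had corrected for background, per the file headers. A second file that the authors deposited holds log2 values; how they were normalized is not stated in the labels or headers. Its medians were 7.22 on BM and 6.16 on FL arrays, so it was used within a tissue only, as an alternative. Of 44397 spots per array, 1377 control spots were left out. Each processed signal was put on the log2 scale and centred on the 75th percentile of the array's other 43020 spots. Copies of a probe were averaged, 31 probes with an outlier spot were left out, and probes well above background on at least 2 of 8 arrays were kept (28410 of 39429). limma 3.58.1 in R 4.3.3 (data.table, version 1.17.8; plots in Python 3.11.15 with matplotlib 3.10.9) fitted 1 mean per group over 8 arrays. P-values were adjusted by Benjamini-Hochberg over 28410 probes and called below 0.05. An exact permutation test of 2 against 2 arrays cannot go below p = 0.333 (two-sided), so calls rest on the spread estimated by the model. That estimate joins each probe's own spread within the 4 groups (residual degrees of freedom 4) with the spread shared between probes (prior degrees of freedom 1.72). The labels number replicates without tying each to a sort, so p-values measure the spread between these samples, which may be technical, and the number of arrays limits the precision. Deviations of same-numbered samples correlated at -0.0613 in BM and 0.514 in FL, where the number also marks the slide. The fit was tested on simulated data. Positions of probes follow the array design, which used mm9. The members and gene lists were chosen with earlier results of these data known. Named are all member probes, up to 4 called genes per list and comparison by smallest adjusted p, the genes beside Rag, and Dntt. List genes not named stand in the counts, and 1 gene that the rule would name is not reported here. Bard1 was named after its values were seen, as its probes disagreed. Alternatives were normexp (offset 50), quantile and median scaling, the authors' table, no filter or 4 arrays in the filter, 1 probe per gene, the compared arrays alone, trend with robust eBayes, the replicate block, the slide as a random block (correlation 0.578), and leaving out each array.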

Additional observations from a re-analysis of the deposited data

How the results depend on the processing

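With Lin28b and with let-7, 0 of 16 probes were called in every alternative. Under the replicate block 0 members and 0% of all probes were called, higher or lower, in both comparisons. The block changed no member call. The replicate numbers mark slides in FL and share only a number in BM. Between FL and BM, 5 higher and 2 lower calls (39.1% and 19.8% of all probes) became 3 and 1 with normexp (35.4% and 6.72%). Quantile scaling gave 3 and 3 (24.5% and 27.3%), and median scaling gave 2 and 7 (17.8% and 37%). Only the compared arrays gave 3 and 1 (33.9% and 15.3%), and the slide as a random block 4 and 1 (31.1% and 14.6%). With 1 probe per gene, 3 and 2 of the 10 member probes tested were called (40.1% and 19.4%). That setting left out upstream Rag1 and downstream Rag2. Leaving out single arrays also moved the counts of higher and lower calls. No called member turned its direction except Xrcc6 and downstream Polm under median scaling. These differences turned their sign, and the cause was not tested. With Lin28b the authors' deposited table gave upstream Rag2 0.01. With let-7, normexp gave upstream Rag2 -0.08, downstream Rag2 0.39, Xrcc4 0.00, Dclre1c probe 2 -0.07, probe 3 0.44, probe 4 0.55 and Poll -0.25, and the authors' deposited table gave Dclre1c probe 2 -0.01 and probe 4 0.03. Between FL and BM, normexp gave Dclre1c probe 3 0.21 and Aptx 0.16. Quantile scaling gave Dclre1c probe 4 -0.59 and upstream Polm -0.44. Median scaling gave upstream Rag2 -0.63 and Xrcc4 -0.56, both called lower, Dclre1c probe 2 -0.59 and probe 4 -0.57, Xrcc6 -0.07, Poll -0.48, downstream Polm -0.29, upstream Polm -0.81, B230118H07Rik -0.49 and Lig1 -0.29. Leaving out single arrays spanned 0 for the following. With Lin28b these were downstream Rag1 (-0.10 to 0.04), Xrcc4 (-0.04 to 0.07), Lig4 (-0.22 to 0.05), Dclre1c probe 1 (-0.03 to 0.13) and probe 3 (-0.11 to 0.02), Poll (0.00 to 0.04) and upstream Polm (-0.21 to 0.43). With let-7 they were downstream Rag1 (-0.38 to 0.24), upstream Rag2 (-0.04 to 0.17), downstream Rag2 (-0.28 to 0.03), Xrcc4 (-0.07 to 0.19), Prkdc (-0.22 to 0.27), Dclre1c probe 1 (-0.31 to 0.33), probe 2 (-0.38 to 0.41), probe 3 (-0.14 to 0.07) and probe 4 (-0.78 to 0.38), Xrcc6 (-0.35 to 0.12), Poll (-0.19 to 0.21) and upstream Polm (-0.04 to 1.20). Between the tissues they were Prkdc (-0.40 to 0.09), Dclre1c probe 2 (-0.08 to 0.54) and upstream Polm (-0.61 to 0.64).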
